A study of Homo sapiens with 6 samples.

Results

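The mRNA levels of 9 antioxidant genes that are read together as the NRF2 and glutathione program were followed in SW480 cells after depletion of RBM39. They are the genes for the transcription factor NRF2 (NFE2L2) and for NQO1, HMOX1, GCLM, GCLC, TXNRD1, SRXN1, GPX2 and GPX4. They were taken by name, 9 of the 56303 gene symbols in the count table, and all 9 passed the filter on low counts. SW480 is a cell line from a human colon adenocarcinoma, and RBM39 is an RNA-binding protein that takes part in pre-mRNA splicing. In the study, RBM39 was silenced to find the splicing events that depend on it. The 3 shCtrl libraries came from SW480 cells labelled wild type that carried a nonsilencing hairpin, and the 3 shRBM39 libraries from SW480 cells with a hairpin against RBM39. Both lines were made with lentivirus and kept after puromycin selection, and the study's methods call such lines clonal, so a difference between the lines and an effect of the knockdown cannot be told apart. Only 1 hairpin is labelled.

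NRF2 is a leucine zipper transcription factor. In unstressed cells the adaptor KEAP1, with the ubiquitin ligase subunits CUL3 and RBX1, marks NRF2 protein for degradation, and electrophiles or oxidants that modify KEAP1 let NRF2 accumulate and bind antioxidant response elements together with small MAF proteins, while BACH1 competes for the same sites. The control therefore lies largely at the protein, which mRNA sequencing does not measure. Among the targets, GCLC and GCLM form the enzyme that limits glutathione synthesis, GPX2 is the glutathione peroxidase of the gut epithelium, TXNRD1 keeps thioredoxin reduced, SRXN1 repairs overoxidised peroxiredoxins, NQO1 reduces quinones and HMOX1 opens heme. GPX4 reduces lipid hydroperoxides in membranes and is the enzyme whose loss permits ferroptosis. TXNRD1, GPX2 and GPX4 are selenoproteins.

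The promoters were searched first for the letters that NRF2 is known to bind. Promoters from RefSeq (GRCh38.p14), from 250 bases before to 50 bases after each start site, were given for 8 of the 9 genes, HMOX1 being the exception, and they were searched on both strands for the antioxidant response element core TGACNNNGC. The core was found in 4 of 12 promoters, which belong to 3 genes, GCLM, GPX2 and TXNRD1, and none of these matches overlapped the AP-1 motif TGACTCA or its reverse complement TGAGTCA. Over all RefSeq promoters of this length 13.3% of 35116 held the core, and 16.1% of 27305 genes had at least 1 such promoter. The bases before the start site are shown for 1 promoter of each of the 3 genes, with the core in capitals, because these are the windows in which it was found. GCLM is read on the minus strand from chr1:93909431-93909680, GPX2 on the minus strand from chr14:64942746-64942995 and TXNRD1 on the plus strand from chr12:104286782-104287031.
GCLM: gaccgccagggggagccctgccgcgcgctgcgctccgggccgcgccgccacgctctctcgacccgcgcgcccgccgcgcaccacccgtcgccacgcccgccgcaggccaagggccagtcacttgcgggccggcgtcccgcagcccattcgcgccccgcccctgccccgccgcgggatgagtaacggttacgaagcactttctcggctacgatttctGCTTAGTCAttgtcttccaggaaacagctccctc
GPX2: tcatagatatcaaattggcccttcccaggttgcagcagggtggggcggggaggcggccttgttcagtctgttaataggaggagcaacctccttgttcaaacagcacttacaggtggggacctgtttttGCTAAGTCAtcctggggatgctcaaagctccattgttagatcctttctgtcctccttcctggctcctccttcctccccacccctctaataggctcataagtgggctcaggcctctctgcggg
TXNRD1: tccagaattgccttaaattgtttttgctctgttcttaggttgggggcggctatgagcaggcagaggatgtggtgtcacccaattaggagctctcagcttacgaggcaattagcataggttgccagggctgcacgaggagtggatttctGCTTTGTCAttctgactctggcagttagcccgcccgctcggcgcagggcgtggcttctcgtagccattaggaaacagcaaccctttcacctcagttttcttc
The core lies 34 to 26 bases before the start of GCLM, 122 to 114 before that of GPX2 and 102 to 94 before that of TXNRD1, each time on the strand opposite to transcription. Read on its own strand it is TGACTAAGC in GCLM, TGACTTAGC in GPX2 and TGACAAAGC in TXNRD1. The other TXNRD1 promoter in the table has 2 matches. A match is a description of letters and not a measured binding site, and no match says only that these letters are not in this window. The 3 genes did not move together in these libraries, as described gene by gene: 1 fell, 1 rose and 1 did not pass the test.

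Libraries held 18042924 to 20428901 counts, with 6.90 to 8.22% of the counts on mitochondrial genes. The targeted gene was checked first. RBM39 had 441, 448 and 435 CPM (counts scaled to a common library total, corrected by TMM factors) in shCtrl replicates 1, 2 and 3, and 266, 276 and 292 in shRBM39 replicates 1, 2 and 3. It fell by 0.67 on the log2 scale (SE 0.04, adjusted p = 1.24e-16). Of 9 colon epithelial markers, 7 had a mean of at least 1 CPM. The list summed to 11703 to 12531 CPM in shCtrl and 14755 to 15328 in shRBM39, and KRT8 and KRT18 held most of it. KRT8 rose from 6924 to 9309 CPM on average and KRT18 from 2940 to 3476. EPCAM (log2 fold change 0.02) and KRT19 (0.07) did not pass the test, and CDH1 (-0.39, adjusted p = 1.03e-09) and VIL1 (-0.09, adjusted p = 0.0298) fell. CDX1 had at most 3 counts in any library, and KRT20 averaged 0.31 and 1.12 CPM in shCtrl and shRBM39. CDX2, an intestinal transcription factor, fell from 21.7 to 4.95 CPM on average (adjusted p = 2.44e-20). Markers of other cell types were low throughout: fibroblast markers summed to 10 to 11.1 CPM in shCtrl and 14 to 14.6 in shRBM39, leukocyte markers to 1.13 to 2.08 and 2.32 to 3.11, and endothelial markers to 3.47 to 4.57 and 6.45 to 7.95. The defining genes COL1A2, COL3A1, DCN, PTPRC, CD3E, CDH5 and KDR had at most 3 counts in every library. Other markers on these lists were present at low levels: COL1A1 had 110 to 208 counts per library, LUM 70 to 111, PECAM1 57 to 122, LYZ 19 to 55 and VWF 10 to 34, and of these COL1A1, PECAM1, LYZ and VWF rose (adjusted p from 8.04e-08 to 0.000101). These sums were higher in shRBM39 for all 4 lists, and their part in the results was not tested.

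The comparison of shRBM39 with shCtrl asks whether the antioxidant genes changed when RBM39 was depleted. Of the 9 genes, 4 passed the test (the quasi-likelihood test of edgeR, adjusted p under 0.05 by Benjamini-Hochberg over 18243 tested genes): SRXN1 and TXNRD1 rose, and NFE2L2 and GPX2 fell. The differences of all 9 were small, from a fall of 0.42 to a rise of 0.57 on the log2 scale. In these libraries 59.1% of all tested genes passed the same test, 29.2% higher and 29.9% lower, so that 4 of 9, or 44.4%, was not above the share of genes in general. The groups did not overlap for 6 of the 9 genes, beside 63.3% of all tested genes. The median log2 fold change of the 9 genes was -0.08, against -0.01 for all genes tested. When libraries were scaled by their totals alone, the median of all genes moved to -0.14, 5 of the 9 genes were called lower and 2 higher, and 33.9% of all calls were higher instead of 49.4%. The study's methods describe separate replicate experiments, and the p-values of this test rest on the spread among 3 of them per line. For each gene this spread is moderated by that of the other tested genes. In bulk RNA, a change in the number of cells that express a gene and a change in RNA per cell cannot be told apart.

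**Figure D1:**
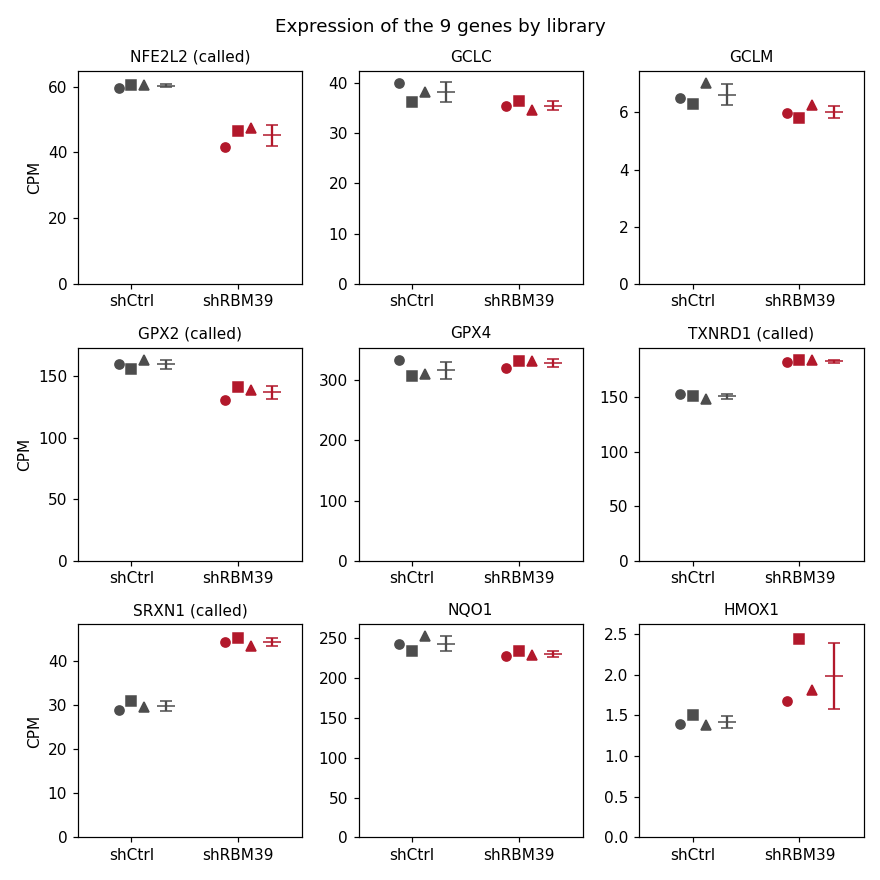
CPM (vertical axis, from 0) of each of the 9 genes in the 3 shCtrl libraries (grey) and the 3 shRBM39 libraries (red); circles, squares and triangles are replicates 1, 2 and 3, and the bar beside them is the mean with its SD. SRXN1 and TXNRD1 sit higher in every shRBM39 library and NFE2L2 and GPX2 lower, while GCLC, NQO1 and GPX4 overlap.

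The regulator itself was lower after RBM39 depletion. NFE2L2 (GRCh38, chromosome 2, 177227595 to 177392697, minus strand) had 59.7, 60.6 and 60.5 CPM in shCtrl, and 41.6, 46.6 and 47.4 CPM in shRBM39. Every shRBM39 library lay below every shCtrl library, and shRBM39 replicate 1 was the lowest. The mean fell from 60.3 ± 0.458 to 45.2 ± 3.16 CPM (SD, n = 3 each), a change of -0.42 on the log2 scale (SE 0.05, 95% interval -0.52 to -0.32, adjusted p = 5.23e-09), and without shRBM39 replicate 1 it was -0.35. A symbol on the same strand, AC074286.1, covers 17.6% of the NFE2L2 exons but had at most 32 counts in a library. With such overlapping symbols summed, an alternative chosen after seeing the data, the NFE2L2 change was -0.43.

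KEAP1, the adaptor that presents NRF2 for degradation, moved the other way. It had 30.6, 31.3 and 29.5 CPM in shCtrl and 46.4, 49.1 and 46.6 CPM in shRBM39, a rise of 0.64 on the log2 scale (SE 0.05, adjusted p = 6.42e-13). The ratio of NFE2L2 to KEAP1 mRNA, from RPKM (reads per kilobase of exon, scaled by the library total), was 1.23, 1.22 and 1.29 in shCtrl and 0.563, 0.596 and 0.641 in shRBM39. All 3 shRBM39 ratios were below all 3 shCtrl ratios, with means of 1.24 ± 0.0384 and 0.6 ± 0.0389 (SD, n = 3) and a log2 difference of -1.05. The exact two-sided permutation test over the libraries gave p = 0.1, the smallest value that 3 against 3 allows.

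Neither subunit of glutamate cysteine ligase passed the test. GCLC, the catalytic subunit (chromosome 6, 53497341 to 53616970, minus strand), had 40.1, 36.2 and 38.3 CPM in shCtrl and 35.4, 36.4 and 34.7 CPM in shRBM39. The ranges overlapped through shRBM39 replicate 2, and the log2 fold change was -0.11 (95% interval -0.21 to 0.0012, adjusted p = 0.0829). The same-strand symbol RP1-27K12.2, which shares 6.3% of the GCLC exon bases, had 10.9, 11.2 and 13.1 CPM in shCtrl and 4.29, 5.58 and 4.08 CPM in shRBM39, a fall of 1.34 on the log2 scale (adjusted p = 2.53e-12). With all counts of both symbols summed, the change of the sum was -0.32 (adjusted p = 1.72e-06), which is not a value of GCLC by itself. For GCLC alone it was -0.14 (adjusted p = 0.0357) without shCtrl replicate 2, -0.06 (adjusted p = 0.352) without shCtrl replicate 1, -0.03 (adjusted p = 0.692) after correction for GC content and length and -0.23 (adjusted p = 0.000316) with library totals.

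GCLM, the modifier subunit that raises the activity of GCLC (chromosome 1, 93885205 to 93909456, minus strand), had 6.5, 6.31 and 7.04 CPM in shCtrl and 5.97, 5.81 and 6.25 CPM in shRBM39. All shRBM39 values were below all shCtrl values, but the gap was narrow and the counts were only 100 to 143 per library. Its log2 fold change was -0.14 (95% interval -0.36 to 0.09, adjusted p = 0.294). The RPKM ratio of GCLC to GCLM was 3.95, 3.67 and 3.49 in shCtrl and 3.79, 4.02 and 3.56 in shRBM39. The groups overlapped, with means of 3.7 ± 0.232 and 3.79 ± 0.229 (SD, n = 3), a log2 difference of 0.03 and p = 0.7 in the exact two-sided permutation test.

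Of the 2 glutathione peroxidases, GPX2 passed the test. This enzyme, which reduces hydroperoxides in the intestinal lining (GPX2, chromosome 14, 64939152 to 64942905, minus strand), had 160, 156 and 163 CPM in shCtrl and 131, 141 and 139 CPM in shRBM39. The groups did not overlap, and the log2 fold change was -0.22 (SE 0.04, 95% interval -0.30 to -0.14, adjusted p = 8.27e-06). GPX4 (chromosome 19, 1103926 to 1106791, plus strand) had 334, 308 and 310 CPM in shCtrl and 321, 333 and 333 CPM in shRBM39. Here shCtrl replicate 1 was as high as the upper shRBM39 libraries and the groups overlapped. The log2 fold change of GPX4 was 0.05 (95% interval -0.03 to 0.13, adjusted p = 0.249), turned to -0.07 when libraries were scaled by their totals or when RPKM was used, and reached 0.09 (adjusted p = 0.0413) without shCtrl replicate 1.

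Both members of the thioredoxin arm rose. TXNRD1, the cytosolic thioredoxin reductase (chromosome 12, 104215779 to 104350305, plus strand), had 153, 151 and 148 CPM in shCtrl and 182, 184 and 184 CPM in shRBM39. The groups lay apart with little spread inside either, and the log2 fold change was 0.28 (SE 0.04, 95% interval 0.21 to 0.36, adjusted p = 4.53e-08). SRXN1, sulfiredoxin (chromosome 20, 646615 to 653370, minus strand), had 28.8, 30.9 and 29.7 CPM in shCtrl and 44.3, 45.2 and 43.5 CPM in shRBM39. This was the largest change among the 9 genes under TMM scaling, a rise of 0.57 on the log2 scale (SE 0.05, 95% interval 0.47 to 0.68, adjusted p = 1.15e-11), with no overlap. A second symbol covers 85.0% of the SRXN1 exon bases on the same strand, and how reads in the shared bases were assigned is not given in the sources used here. That symbol had 23.9, 25.6 and 24.4 CPM in shCtrl and 38.2, 40.6 and 36.7 CPM in shRBM39, and with both summed the rise was 0.60.

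The 2 widely used reporters of NRF2 activity did not pass the test. NQO1 (chromosome 16, 69706996 to 69726951, minus strand) had 243, 234 and 253 CPM in shCtrl and 227, 234 and 229 CPM in shRBM39. The highest shRBM39 library and the lowest shCtrl library both had 234 CPM, and the log2 fold change was -0.08 (95% interval -0.16 to -0.004, adjusted p = 0.0651). It was -0.20 (adjusted p = 1.14e-05) when libraries were scaled by their totals, and it passed the threshold under 7 of 18 alternatives, all in the same direction. HMOX1, the inducible heme oxygenase (chromosome 22, 35380361 to 35394214, plus strand), had 1.39, 1.51 and 1.38 CPM in shCtrl and 1.68, 2.44 and 1.81 CPM in shRBM39, from 28 to 42 counts per library. Although the groups did not overlap, shRBM39 replicate 2 stood above the others and the interval was wide, with a log2 fold change of 0.46 (SE 0.21, 95% interval 0.02 to 0.89, adjusted p = 0.0647). Without that library it was 0.29 (adjusted p = 0.293), and without shRBM39 replicate 1 it was 0.57 (adjusted p = 0.0393). The call for HMOX1 thus turned on single libraries.

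**Figure D2:**
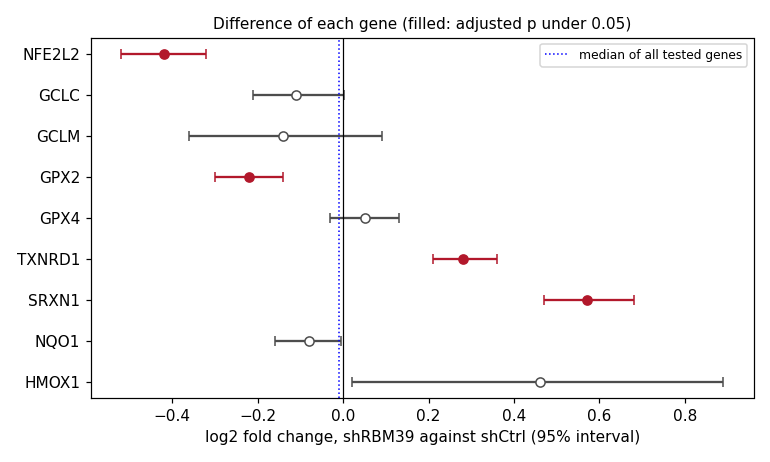
Log2 fold change of shRBM39 against shCtrl (horizontal axis) for each of the 9 genes with its 95% interval; filled red points had an adjusted p under 0.05, open points did not, and the dotted line is the median of all tested genes, -0.01. HMOX1 has the widest interval, 0.02 to 0.89, and the intervals of GCLC, GCLM and GPX4 include 0.

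Per length, the 9 genes covered a wide range of levels. GPX4 was highest with a mean of 164 RPKM in shCtrl, followed by GPX2 with 111, NQO1 with 78 and TXNRD1 with 23.4. SRXN1 had 11.5, NFE2L2 10.5, GCLC 4.7, GCLM 1.27 and HMOX1 0.618 RPKM. No neighbours in this order overlapped between the libraries of shCtrl, and the order was the same in shRBM39, again without overlap of neighbours, from 156 RPKM for GPX4 to 0.786 RPKM for HMOX1. SRXN1 and NFE2L2, close in shCtrl, lay farther apart in shRBM39 with 15.7 and 7.23 RPKM. The second symbol that covers 85.0% of the SRXN1 exon bases had means of 9.46 RPKM in shCtrl and 13.6 in shRBM39. How shared reads were assigned is not given, so the place of SRXN1 in the order holds only for the counts as deposited. The length used is that of all merged exons, whether or not these cells use them. By the mean in shCtrl, GPX4, GPX2 and NQO1 ranked at the 98.5th, 97.8th and 96.8th percentile of tested genes, and GCLM and HMOX1 at the 26.3rd and 14th.

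**Figure D3:**
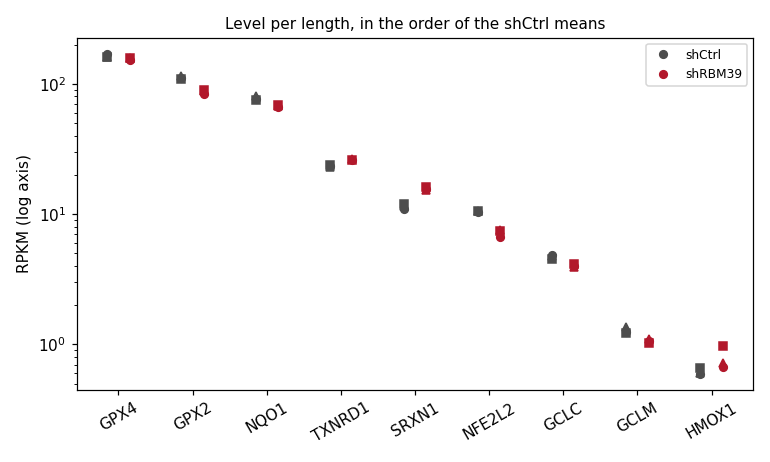
Level per length in RPKM (vertical log axis) of the 9 genes in the order of their shCtrl means, with 1 point per library, shCtrl in grey and shRBM39 in red. The order runs from GPX4, 164 RPKM on average in shCtrl, to HMOX1, 0.618 RPKM, and is kept in shRBM39. SRXN1 is shown without the counts of the symbol that covers 85.0% of its exon bases.

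The other genes of the pathway were described in 10 lists with 113 genes, of which 105 were tested. Of these 77, or 73.3%, passed the test, beside 59.1% of all tested genes, 49 higher and 28 lower, with a median log2 fold change of 0.10. Under TMM scaling 49.4% of all calls were higher. With library totals 36 pathway genes were higher and 35 lower, with a median of -0.02. There 33.9% of all calls were higher and the median of all genes was -0.14. On both RPKM scales 35 pathway genes were higher and 35 lower, and 33.6% of all calls were higher. The pathway genes thus split evenly on these scales, while all genes leaned to lower calls. This difference from all genes was not tested. Among 11 tested regulators, 3 rose and 6 fell, with a median of -0.36. RBX1, the RING subunit of the KEAP1 ligase, rose by 0.84 on the log2 scale (adjusted p = 2.58e-10), in the same direction as KEAP1. SQSTM1 (p62), an autophagy receptor that sequesters KEAP1, fell from 95.5 ± 2.1 to 58.7 ± 2.67 CPM (SD, n = 3), by 0.70 on the log2 scale (adjusted p = 1.3e-15). BACH1, the repressor, had a change of -0.17 that did not pass (adjusted p = 0.143).

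Next to GCLC and GCLM stand the genes that supply, recycle or break down glutathione. Of the 12 genes listed as glutathione supply, which include enzymes of its breakdown, 8 fell and 2 rose, with a median of -0.34. With library totals 8 were also called lower. SLC7A11, the cystine carrier subunit of system xc-, had 20.6, 23.8 and 20.7 CPM in shCtrl and 5.16, 7.61 and 6.45 CPM in shRBM39. CBS, which condenses homocysteine and serine in transsulfuration, had 43, 44.1 and 38.7 CPM in shCtrl and 11.5, 11.5 and 12.8 CPM in shRBM39. Neither gene overlapped between groups, and they fell by 1.77 (adjusted p = 3.27e-17) and by 1.81 (adjusted p = 1.06e-21) on the log2 scale, more than any of the 9 genes. GSS, which adds glycine in the second step of glutathione synthesis, fell by 0.18 on the log2 scale (adjusted p = 0.00011). CHAC2, which degrades glutathione, rose by 1.13 (adjusted p = 1.62e-13). Its paralog CHAC1, named after its values were seen, fell by 0.58 on the log2 scale (adjusted p = 5.54e-06). GSR, glutathione reductase, had a change of 0.10 (adjusted p = 0.0755) that turned to -0.02 with library totals and on the RPKM scale.

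All 7 tested peroxidases and dismutases outside the 9 genes were called higher, with a median of 0.65, and 6 of them with library totals. GPX1, the ubiquitous cytosolic glutathione peroxidase, had 46.9, 45.2 and 46 CPM in shCtrl and 76.2, 71.2 and 74.2 CPM in shRBM39. Its log2 fold change was 0.68 (adjusted p = 4.79e-15), opposite in sign to that of GPX2. GPX3 and GPX8 were low, with means of 1.59 and 1.63 CPM in shCtrl, and rose by 1.22 (adjusted p = 6.12e-07) and 0.97 (adjusted p = 8.2e-05) on the log2 scale. Without shCtrl replicate 1, the library with the lowest GPX8 value, the GPX8 change was 0.71. In the thioredoxin system, 11 of 15 genes rose and 1 fell, with a median of 0.30, and 7 rose and 1 fell with library totals. PRDX1, a peroxiredoxin and so a substrate of the thioredoxin pathway, rose by 0.93 (adjusted p = 5.32e-20), and TXN, thioredoxin itself, by 0.57 (adjusted p = 1.28e-13), which is the direction of TXNRD1 and SRXN1. The exception was TXNIP, which binds and inhibits thioredoxin and fell from 161 ± 8.37 to 75.1 ± 4.67 CPM (SD, n = 3), by 1.10 on the log2 scale (adjusted p = 1.49e-20). How multi-mapped reads were counted is not given in the sources used here, and PRDX1, GPX1, FTH1 and FTL have processed pseudogene copies, so their values carry that uncertainty.

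**Figure D4:**
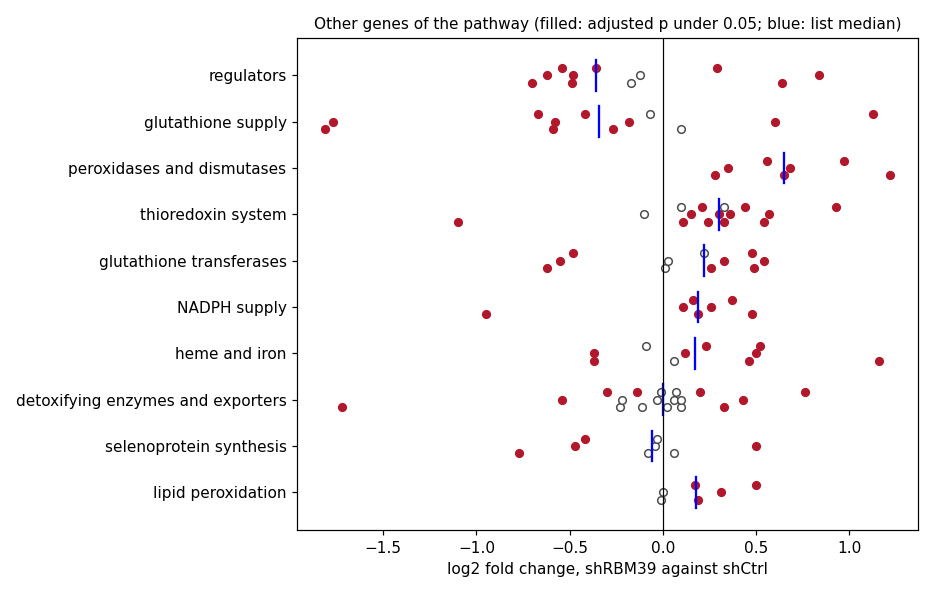
Log2 fold change of shRBM39 against shCtrl (horizontal axis) for each tested gene of the 10 pathway lists, the 9 genes not included; filled red points had an adjusted p under 0.05, open points did not, and the blue bar is the list's median. Medians run from -0.36 for regulators and -0.34 for glutathione supply to 0.65 for peroxidases and dismutases.

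NADPH, the reductant for TXNRD1, NQO1 and GSR, is supplied by 7 listed genes, of which 6 rose and 1 fell, with a median of 0.19. With library totals 3 rose and 1 fell. PGD, an oxidative enzyme of the pentose phosphate pathway, rose by 0.48 (adjusted p = 5.55e-13) on the log2 scale, whereas PGLS, a lactonase of the same pathway, fell by 0.95 (adjusted p = 1.05e-11). ME1, malic enzyme, rose by 0.19 (adjusted p = 0.0151), but its change was 0.06 and not called with library totals. Among 10 heme and iron genes, 6 rose and 2 fell, with a median of 0.17. HMOX2, the constitutive heme oxygenase, had 93.1, 90.5 and 90.4 CPM in shCtrl and 132, 133 and 128 CPM in shRBM39, and rose by 0.52 on the log2 scale (adjusted p = 1.46e-13). TFRC, the transferrin receptor, rose by 1.16 (adjusted p = 1.37e-22) and BLVRA, which reduces the biliverdin made by heme oxygenases, by 0.50 (adjusted p = 3.64e-08). The ferritin chains FTL and FTH1 rose by 0.23 (adjusted p = 4.56e-05) and 0.12 (adjusted p = 0.00666), but FTH1 turned to -0.01 with library totals and on the RPKM scale.

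Of 18 tested detoxifying enzymes and exporters other than NQO1, 4 were higher and 4 lower, with a median of 0.00. With library totals 2 were higher and 6 lower, with a median of -0.12. ABCC3, an exporter of glutathione and glucuronide conjugates, fell by 1.72 on the log2 scale (adjusted p = 1.49e-20), and SLC48A1, a heme transporter, by 0.54 (adjusted p = 9.37e-09), while the aldo-keto reductase AKR1C3 rose by 0.43 (adjusted p = 4.43e-07). Of 11 tested glutathione transferases, 5 rose and 3 fell, with a median of 0.22, and the named ones were GSTA4 with -0.62 (adjusted p = 2.5e-05), GSTO2 with -0.55 (adjusted p = 7.07e-08) and GSTM4 with 0.54 (adjusted p = 1.52e-05). Selenoprotein synthesis genes, on which GPX2, GPX4 and TXNRD1 depend for selenocysteine, comprised 1 that rose, 3 that fell and 4 that did not pass, with a median of -0.06. SEPHS1 rose by 0.50 (adjusted p = 1.05e-11), and SEPSECS, which makes selenocysteine on its tRNA, fell by 0.77 (adjusted p = 1.81e-05), as did TRNAU1AP by 0.47 (adjusted p = 0.001). Around GPX4, 4 of 6 lipid peroxidation genes rose and none fell under TMM scaling, with a median of 0.18, whereas 2 rose and 1 fell with library totals. GCH1, which makes the radical trapping agent tetrahydrobiopterin, rose by 0.50 (adjusted p = 7.43e-05), ACSL4, which feeds polyunsaturated fatty acids into membranes, by 0.31 (adjusted p = 8.39e-05), and AIFM2 (FSP1), which reduces ubiquinone, by 0.19 (adjusted p = 0.00112). AIFM2 was at 0.06 and not called with library totals and on both RPKM scales, and ACSL4, at 0.15 and 0.18, was not called on the RPKM scales.

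The genes whose CPM followed NFE2L2 most closely over the 6 libraries were PROSER2-AS1 and CCDC18-AS1 (Pearson's r of log2 CPM 0.9992 for both), SPNS3 (0.9987), SSC4D and P4HA1 (0.9986 for both). None of the 9 genes is among them. Such values are a description, because the 6 points fall into the 2 groups, and 1349 of 16265 genes compared had an r over 0.95. The deposited splicing table held 1582 records, kept by the authors for a small p-value and a difference in exon inclusion. It listed 0 records of the 9 genes and 15 records of 11 other pathway genes, among them NFE2L1, BTRC, GGT1, PRDX5 and NQO2. The share of all genes with a record was not counted, so these counts are no result about these genes in particular. Events outside that table were not analysed here.

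**Figure D5:**
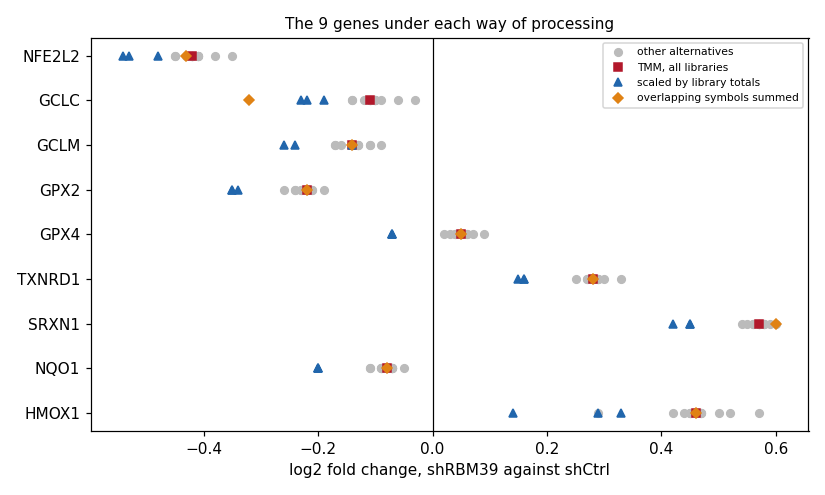
Log2 fold change of the 9 genes (horizontal axis) with TMM and all libraries (red squares) and under each alternative, with blue triangles for the 3 that scale libraries by their totals, an orange diamond for summed overlapping symbols and grey points for the rest. NFE2L2, GPX2, TXNRD1 and SRXN1 stay on 1 side of 0, and GPX4 crosses to -0.07. The diamond of GCLC, at -0.32, is the change of its counts plus all those of RP1-27K12.2. That symbol shares 6.3% of the GCLC exon bases and fell by 1.34 by itself.

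The 4 called genes kept their direction under all 18 alternatives and their call under 17 of them, the exception being the stricter null of a 0.5 log2 fold change, which none of the 9 genes passed. That null and the stricter threshold of 0.01 reuse the main fold changes, so direction could not change there. Over the alternatives NFE2L2 ranged from -0.54 to -0.35, GPX2 from -0.35 to -0.19, TXNRD1 from 0.15 to 0.33 and SRXN1 from 0.42 to 0.60 on the log2 scale. The remaining 5 genes each passed the threshold under at least 1 alternative, from 1 of 18 for HMOX1 and GPX4 to 7 of 18 for NQO1.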

How the data were processed

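Stranded mRNA libraries with unique identifiers from SW480 cells were grouped by sample title into shCtrl and shRBM39, 3 each; the count columns named NC were taken as shCtrl because no other control is labelled. Per the submitters' processing notes, Trimmomatic 0.36, STAR 2.5.3a, featureCounts in Subread 1.5.1 and edgeR 3.12.1 were used with GRCh38; the annotation release and the handling of identifiers and multi-mapped reads are not given in the sources used here. The authors deposited a table of raw read counts by symbol, with exons merged, and a table of RPKM values that follow from those counts (largest relative difference 1.2e-13). Of 547 exons of the 9 genes, 89.4% matched a GENCODE v44 exon. The authors also deposited rMATS records with p-values, FDR and inclusion differences, which were not used except to count records per gene, and a tally of events.

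The quasi-likelihood test of edgeR 4.0.16 under R 4.3.3 was applied to the counts after filterByExpr and TMM scaling, with no term but the group, and p-values were adjusted by Benjamini-Hochberg over 18243 genes at 0.05. CPM carries the TMM factors. Ratios were compared by exact two-sided permutation. Replicates differed by more than sampling noise (chi-square per degree of freedom 2.11 to 4.21). Alternatives used DESeq2 1.42.0, limma 3.58.1 on log2(RPKM + 1) and log2(RPKM + 0.1), other scalings and filters, a replicate block, each library left out, a correction for GC content and length (mgcv 1.9.3), and, chosen after seeing the data, summing of same-strand overlapping symbols. The fit was tested on simulated data in which few genes were changed, as many up as down. Such data cannot show how the scaling behaves where 59.1% of tested genes are called. The members, pathway lists and tests were chosen with earlier results of these data known. All 9 members were named, and from each pathway list the 3 called genes with the largest change and a mean of at least 1 CPM, with 12 further genes whatever their values. The values of 2 listed genes are not reported here. Precision is limited by 3 libraries per group and 18042924 to 20428901 counts per library.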

Additional observations from a re-analysis of the deposited data

How the results depend on the processing

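Of the 9 genes, 4 were called, 2 higher and 2 lower. With library totals alone and with log2(RPKM + 1), 7 were called, 5 of them lower. With upper-quartile scaling and with log2(RPKM + 0.1), 4 were lower. When each library was left out in turn, 4 to 6 were called, 2 to 3 higher and 2 to 4 lower, the 4 lower arising without shCtrl replicate 2. Against a log2 fold change of 0.5 the calls were 0, with 0 higher and 0 lower, beside 17 pathway genes and 2232 of all genes in place of 77 and 10790. With library totals and on both RPKM scales GPX4 turned to -0.07, GSR to -0.02 and FTH1 to -0.01; these scales move the median of all genes down. The log2 difference of the GCLC to GCLM ratio ran from -0.01 to 0.08 when each library was left out, and was -0.01 without shCtrl replicate 3 or without shRBM39 replicate 2, so no direction is given. The NFE2L2 to KEAP1 difference ran from -1.10 to -1.01. Same-numbered libraries did not deviate together (correlations 0, -0.08 and 0.04), and the fit with a replicate block called the same number of members, 4, and 10810 of all genes. DESeq2 called 9081. For the 36 named pathway genes, 605 of 648 values under alternatives kept direction and call. Direction could not change with the threshold at 0.01 or against the 0.5 null, which reuse the main fold changes. Summing overlapping symbols did not alter the counts of these 36 genes. HMOX1 had the fewest counts of the 9 genes, 28 to 42 per library.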
